A study of Oryza sativa and Arabidopsis thaliana with 16 samples.

Results

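SIR, APS3 and APS4 are Arabidopsis thaliana genes of sulfate assimilation, the route by which plants turn sulfate into the sulfide used to make cysteine. They were taken as every probe set of the Arabidopsis array that the platform annotation pairs with 1 of these symbols alone. This gave 3 genes of the 13350 single genes named on the array, each through 1 probe set: 250846_at for SIR (gene ID 830336), 245254_at for APS3 (gene ID 827118) and 249112_at for APS4 (gene ID 834400). No probe set named any of them together with another gene.

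Expression was measured on 1-colour Affymetrix arrays in 4 groups of 2 arrays from wild-type seedlings, which the labels call biological replicates. All plants were 13 days old and had grown in liquid medium with ammonium succinate at 0.5 mM and sucrose at 3 mM, at 22 °C under light of 50 μE per second and square metre. At the start of the light period the nitrogen groups were given 20 mM KNO3 together with 20 mM NH4NO3 and the control groups 20 mM KCl, and both were harvested after 2 h. The groups were root KCl, root nitrogen, shoot KCl and shoot nitrogen. All groups thus had ammonium before the treatment, and nitrogen plants were given no chloride and more salt than the KCl plants, so the effects of nitrate, ammonium and salt cannot be told apart. The extraction protocol speaks of whole plants, and the tissue label of each sample says root or shoot. The series design sets these Arabidopsis arrays beside rice arrays, which are not analysed here, to ask which nitrogen responses are conserved.

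Sulfate that enters the cell is first activated by ATP sulfurylase, which joins it to ATP to give adenosine phosphosulfate. In Arabidopsis this enzyme is made by a small family of genes, of which APS3 and APS4 are members, and both are known targets of miR395, a microRNA that accumulates when sulfur is short. The activated sulfate is reduced to sulfite and then, by sulfite reductase (SIR), to sulfide. SIR takes its electrons from reduced ferredoxin and carries siroheme, a cofactor that it shares with nitrite reductase, and it is the only gene for this enzyme in Arabidopsis.

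Values are on the log2 scale and come from RMA, which removes background, brings the arrays to a common scale and condenses the probes of each probe set into 1 value. Differences between groups are given on the log2 scale with their standard error (SE) from limma, a linear model fitted to all 22746 probe sets with variances moderated across them. A change was called at a two-sided p under 0.05 after Benjamini-Hochberg adjustment over all probe sets. In whole roots and shoots, fewer cells of a type and less RNA per cell cannot be told apart. The root KCl arrays stood apart from the rest. Their 75th percentile over probe sets was 6.83 and 6.92 against 7.16 to 7.22 on the other arrays, and the correlation between the arrays of the pair was 0.956 against 0.981 to 0.993 in the other groups. The tissue labels were borne out by markers. All 4 measured photosynthesis markers were lower in roots (median log2 difference -4.64), with a summed linear signal of 365 to 605 in root arrays and 11185 to 16083 in shoot arrays. Of the 4 measured root markers, 3 peroxidase genes were higher in roots and the root hair expansin gene EXPA7 was not called (0.69 ± 0.29), with a summed signal of 1840 to 3025 in root and 144 to 165 in shoot arrays.

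SIR, which carries out the last reduction step, was higher in nitrogen-treated than in control roots. Its log2 value was 7.93 and 8.18 in the root KCl arrays and 9.41 and 8.996 in the root nitrogen arrays. Both nitrogen arrays lay above both control arrays, with no overlap, as was the case in either direction for 57.3% of all probe sets. The log2 change was 1.15 ± 0.25 (SE, n = 2 arrays per group), a 2.22-fold rise with a 95% confidence interval of 1.49 to 3.33-fold (limma adjusted p = 0.0332). In roots 11.4% of all probe sets were called, 6.94% higher and 4.44% lower, with a median change of 0.02. Among probe sets with a mean above 5.61, the median of all means, 8.72% were higher and 0.985% lower. Their median change was 0.24, and SIR, with a mean of 8.49, was among them. How much of the change of SIR is shared with these brighter probe sets was not tested. After median centring of the arrays the split over all probe sets was 4.84% higher and 7.02% lower. SIR was still called then (1.06, adjusted p = 0.0413), while after quantile normalization it was not (0.93, adjusted p = 0.0790). The change of SIR lay above that of 97.9% of all probe sets, dim ones included. In the same comparison 1 of the 4 photosynthesis markers, the Calvin cycle gene SBPASE, fell by 1.40 ± 0.24 (adjusted p = 0.0188, not called without either root nitrogen array), and none of the 4 root markers was called. The summed signal of the photosynthesis markers was 365 to 605 in root KCl and 433 to 465 in root nitrogen arrays, and that of the root markers 2108 to 3025 and 1840 to 2958. Their part in the change of SIR was not tested.

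The call of SIR in roots was close to its threshold and moved with the other arrays in the fit. It was kept without root KCl replicate 2 (adjusted p = 0.0483) and without either shoot nitrogen array (0.0295), and lost without root KCl replicate 1 (0.0628), without root nitrogen replicate 1 (0.154) or 2 (0.103) and without either shoot KCl array (0.0763). The size of the change was between 0.94 and 1.36 without a root array. Leaving out a shoot array could not move it from 1.15.

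**Figure D1:**
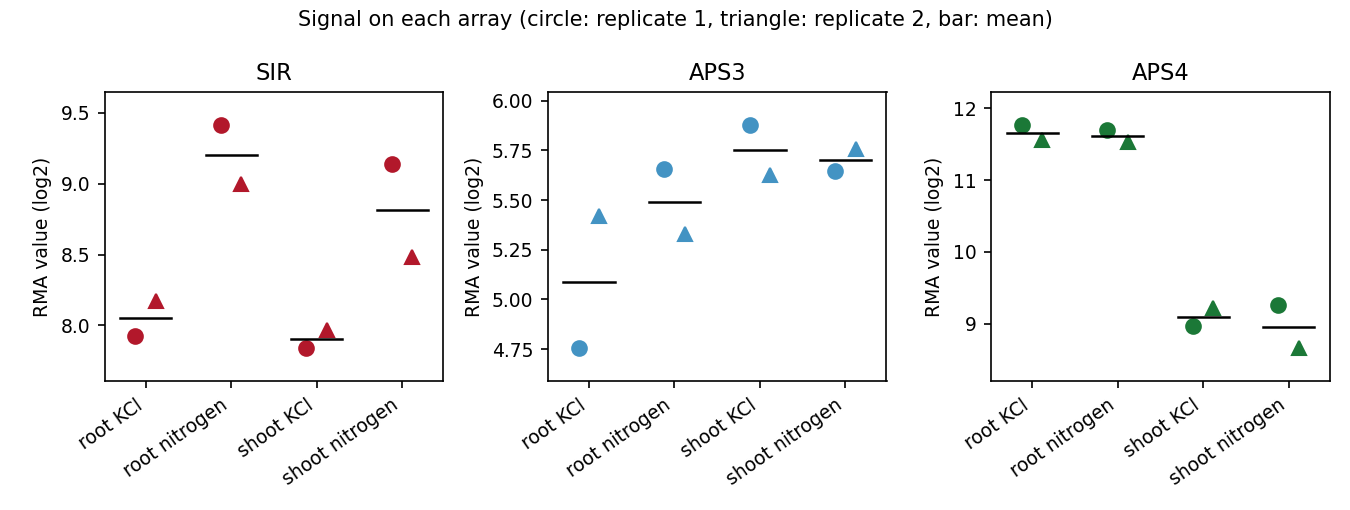
RMA log2 value of SIR, APS3 and APS4 (vertical axes, each with its own range) in the 4 groups, 1 point per array and a bar at the mean. SIR was at 8.49 to 9.41 in the nitrogen arrays and 7.84 to 8.18 in the KCl arrays, and APS4 separated roots from shoots in each treatment.

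In shoots SIR was also at higher values with nitrogen, by a difference that did not pass the adjusted test. The value was 7.84 and 7.97 in the shoot KCl arrays and 9.14 and 8.49 in the shoot nitrogen arrays. The groups did not overlap, which held for 34.4% of all probe sets, and the shoot nitrogen arrays were 0.65 apart, the widest of the 4 pairs for this gene. The log2 difference was 0.91 ± 0.25, a ratio of 1.87 with an interval of 1.25 to 2.81 (limma adjusted p = 0.301, unadjusted p = 0.00790). Leaving out shoot nitrogen replicate 1 gave 0.58, and leaving out replicate 2 of that group gave 1.23. In shoots 0.637% of all probe sets were called, 0.374% of all as higher. The difference lay above that of 98.6% of probe sets.

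Averaged over roots and shoots, SIR rose by 1.03 ± 0.17, or 2.04-fold with an interval of 1.53 to 2.72-fold (limma adjusted p = 0.0328). In this average 3.21% of all probe sets were called, 2.17% of all as higher. The change was above that of 99.1% of probe sets. With 1 array left out the average lay between 0.87 and 1.19, and the call was lost without either root nitrogen array (adjusted p = 0.113 and 0.0758), without either shoot KCl array (0.151 each) and without shoot nitrogen replicate 1 (0.0507).

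The response of SIR was not shown to differ between the tissues. The root change exceeded the shoot change by 0.25 ± 0.35, with an interval of -0.58 to 1.07 (limma adjusted p = 0.726), where 0.484% of all probe sets were called. The sign of this difference turned without shoot nitrogen replicate 2 (-0.080). Over both treatments the root minus shoot level was 0.27 ± 0.17, which was not called (adjusted p = 0.281). By group mean, root nitrogen was highest (9.20 ± 0.29, SD), then shoot nitrogen (8.81 ± 0.46), root KCl (8.05 ± 0.18) and shoot KCl (7.91 ± 0.09). The arrays of root nitrogen and shoot nitrogen overlapped, as did those of root KCl and shoot KCl, and there was a gap between shoot nitrogen and root KCl.

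APS4, an ATP sulfurylase gene, differed between the tissues and showed no called nitrogen response. Its value was 11.76 and 11.56 in root KCl arrays, 11.70 and 11.54 in root nitrogen arrays, 8.97 and 9.21 in shoot KCl arrays and 9.25 and 8.67 in shoot nitrogen arrays. Every root array lay more than 2 log2 units above every shoot array. Over both treatments the root level exceeded the shoot level by 2.61 ± 0.15 (n = 4 arrays per tissue), a ratio of 6.12 with an interval of 4.78 to 7.85 (limma adjusted p = 1.82e-05). Between tissues 35.8% of all probe sets were called, 19.3% of all as higher in roots, and 31.2% did not overlap. The ratio was 5.93 in KCl plants (adjusted p = 0.000178) and 6.32 in nitrogen plants (adjusted p = 0.000175), comparisons in which 31.2% and 23.3% of probe sets were called.

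The nitrogen difference of APS4 was -0.04 ± 0.21 in roots (interval -0.55 to 0.46, limma adjusted p = 0.912) and -0.13 ± 0.21 in shoots (interval -0.64 to 0.37, adjusted p = 1.00). On average over the tissues it was -0.09 ± 0.15, with an interval from -0.45 to 0.27. Nitrogen and KCl arrays overlapped in either tissue, and the sign turned when some single arrays were left out. The root mean was 11.66 ± 0.14 (SD) with KCl and 11.62 ± 0.12 with nitrogen, and the shoot mean 9.09 ± 0.17 and 8.96 ± 0.42. The interaction was 0.09 ± 0.30 (adjusted p = 0.891).

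APS3, the other ATP sulfurylase gene, had low values on all arrays and passed none of the tests. It read 4.76 and 5.42 in root KCl arrays, 5.66 and 5.33 in root nitrogen arrays, 5.88 and 5.63 in shoot KCl arrays and 5.65 and 5.76 in shoot nitrogen arrays. Its mean over the 8 arrays, 5.51, was below 5.61, the median of all probe set means, and RMA values carry no detection call. Neighbouring groups overlapped throughout the order of means, from shoot KCl (5.75 ± 0.18, SD) over shoot nitrogen (5.70 ± 0.08) and root nitrogen (5.49 ± 0.23) to root KCl (5.09 ± 0.47). The lowest array was root KCl replicate 1.

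For APS3 the nitrogen difference was 0.40 ± 0.24 in roots (interval -0.16 to 0.97, limma adjusted p = 0.288) and -0.05 ± 0.24 in shoots (interval -0.61 to 0.51, adjusted p = 1.00). It averaged 0.18 ± 0.17 over the tissues (adjusted p = 0.572), and the interaction was 0.45 ± 0.34 (adjusted p = 0.498). Leaving out root KCl replicate 1 moved the root difference to 0.074, the average to 0.013 and the interaction to 0.12. Leaving out root KCl replicate 2 moved them to 0.74, 0.34 and 0.78. The root level was 0.44 ± 0.17 below the shoot level (-0.44, interval -0.83 to -0.04, adjusted p = 0.0854), a difference called without root KCl replicate 2 (-0.60, adjusted p = 0.0122). The tissue difference of APS3 had the opposite sign to that of APS4.

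**Figure D2:**
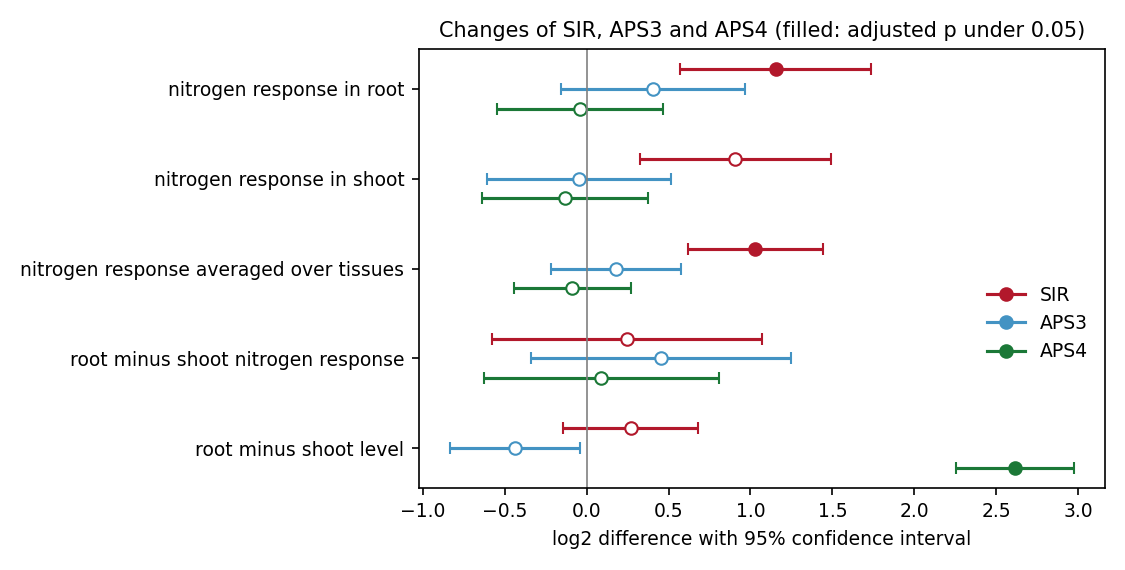
Log2 differences of SIR (red), APS3 (blue) and APS4 (green) in 5 comparisons, with 95% confidence intervals; filled points had an adjusted p under 0.05. The filled points are SIR in root (1.15) and averaged over tissues (1.03), and APS4 for root minus shoot level (2.61).

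The average nitrogen change of SIR (interval 0.62 to 1.44) did not overlap with the intervals of APS3 (-0.22 to 0.58) or APS4 (-0.45 to 0.27). A difference in response between genes was not tested. Across the 8 arrays, which share tissue and treatment groups, Pearson's r was 0.19 between SIR and APS3, 0.24 between SIR and APS4 and -0.69 between APS3 and APS4, given as a description.

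The genes whose values most resembled those of SIR over the 8 arrays, out of 1552 genes with a symbol other than a locus code, were TBL16 (r = 0.959), the kinase gene WNK7 (0.955), PGM (0.942) and the splicing factor gene PRP39 (0.938). Their root and shoot nitrogen differences were 0.87 and 0.67 for TBL16, 2.53 and 1.91 for WNK7, 2.11 and 3.10 for PGM, and 0.30 and 0.23 for PRP39. PGM was called in roots (limma adjusted p = 0.0342) and shoots (0.0442). TBL16 (0.0498) and WNK7 (0.0115) were called in roots but not in shoots (0.471 and 0.0872), and PRP39 was called in neither tissue. For APS4 the nearest were the beta-glucosidase gene BGLU15 (r = 0.995), the carboxylesterase gene CXE18 (0.994), RALFL32 (0.993), which encodes a RALF-type signalling peptide, and the jacalin-related lectin gene JAL34 (0.992). All 4 had higher levels in roots, by 1.97 to 3.54. For APS3 they were Fes1B (r = 0.951), the tetraspanin gene TET11 (0.949), the vacuolar proton pump subunit gene VHA-A2 (0.949) and GLDH (0.942), whose enzyme makes ascorbate. Each of these 4 had a lower mean in roots, by differences of -0.69 to -0.22. No test result is given for these tissue differences or for those of the 4 genes nearest to APS4. All of these values rest on 8 arrays that fall into 4 groups. The genes were picked for their likeness to a member on these same arrays. Their nitrogen and tissue differences largely follow from that choice and are given as a description.

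The rest of the pathway was measured only in part. Of 55 listed genes for sulfate transport, activation and reduction, cysteine and glutathione synthesis, sulfur starvation and the supply of siroheme and reductant, 8 were named by the annotation, SIR, APS3 and APS4 among them. A further 13 sulfur metabolism genes were found by symbol in the annotation. Of these 18 other genes, 3 were higher and 2 lower in nitrogen-treated roots, beside 6.94% higher and 4.44% lower of all probe sets. Their median root change was 0.20, against 0.02 over all probe sets. Among probe sets with a mean above 5.61 the median was 0.24, with 8.72% higher and 0.985% lower. In shoots 2 of the 18 genes were higher and none lower (median 0.01, against -0.01 over all probe sets). There 0.637% of all probe sets were called, 0.374% as higher. Before adjustment 1566 probe sets lay below 0.05 in the limma fit. Both shoot rises and 2 of the 3 root rises were AT5G41670 and AT1G64190, listed for the supply of reductant. None of the 13 further sulfur metabolism genes was called in shoots. The lists were chosen with earlier results of these data known, so these counts are a description.

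A gene linked to reducing power, AT5G41670, had the largest rise of the 18 in either tissue. It encodes a 6-phosphogluconate dehydrogenase. The 6-phosphogluconate dehydrogenases yield NADPH, which in roots feeds the reduction of ferredoxin, the electron donor of SIR. It read 8.26 and 8.66 in root KCl, 11.30 and 10.46 in root nitrogen, 7.88 and 7.64 in shoot KCl and 11.52 and 10.77 in shoot nitrogen arrays. Its log2 change was 2.42 ± 0.34 in roots (limma adjusted p = 0.0126) and 3.39 ± 0.34 in shoots (adjusted p = 0.0123). Its groups did not overlap in either tissue, as held for 57.3% of all probe sets in roots and 34.4% in shoots. AT1G64190 rose by 1.46 ± 0.21 in roots (adjusted p = 0.0126) and 1.67 ± 0.21 in shoots (adjusted p = 0.0258), while another of these genes, AT3G02360, was at -0.33 in roots and 0.05 in shoots. In roots the call of AT1G64190 was lost without either root nitrogen array (highest adjusted p = 0.0817) and that of AT5G41670 without root nitrogen replicate 1 (0.0662). Both root calls were also lost with the root arrays alone, with weighted arrays and without moderated variances. Both shoot calls were lost without either shoot KCl array, and the shoot call of AT1G64190 was kept in only 2 of 8 fits that left out 1 array. Siroheme supply was measured through SIRB, the ferrochelatase that inserts iron in the last step of siroheme synthesis. SIRB was at 6.50 and 6.71 in root KCl and 6.80 and 6.85 in root nitrogen arrays, a difference of 0.22 ± 0.14 (adjusted p = 0.323), and 0.09 ± 0.14 in shoots. Its level was lower in roots than in shoots, by a difference of -0.96 ± 0.10 (adjusted p = 0.000323).

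Genes that use or move reduced sulfur did not move in 1 direction. SUFE2, which helps to mobilise sulfur from cysteine for iron-sulfur clusters, read 8.87 and 8.70 in root KCl and 6.33 and 6.37 in root nitrogen arrays. In shoots it read 7.43 and 7.57 with KCl and 7.03 and 7.08 with nitrogen. The groups were separate in either tissue, as held for 57.3% of all probe sets in roots and 34.4% in shoots. The root change was -2.44 ± 0.12 (limma adjusted p = 0.00186). The shoot difference was -0.45 ± 0.12 (limma adjusted p = 0.328), and the root change was more negative than the shoot change by -1.99 ± 0.18 (interaction adjusted p = 0.0316). UGT74B1, a glucosyltransferase of glucosinolate synthesis, read 6.67 and 6.42 in root KCl, 8.28 and 8.36 in root nitrogen, 6.76 and 6.39 in shoot KCl and 6.93 and 6.89 in shoot nitrogen arrays. Its root rise of 1.77 ± 0.16 (adjusted p = 0.00511) was called in all 8 fits that left out 1 array, as was the root fall of SUFE2. Both calls were lost with the root arrays alone (limma adjusted p = 0.0690 for UGT74B1 and 0.0545 for SUFE2). The interaction of UGT74B1 was 1.43 ± 0.23 (adjusted p = 0.0565). The sulfurtransferase gene STR18 fell by 0.81 ± 0.21 in roots (adjusted p = 0.0499), a call held in none of the 8 fits that left out 1 array, and was at -0.91 ± 0.21 in shoots (adjusted p = 0.181).

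**Figure D3:**
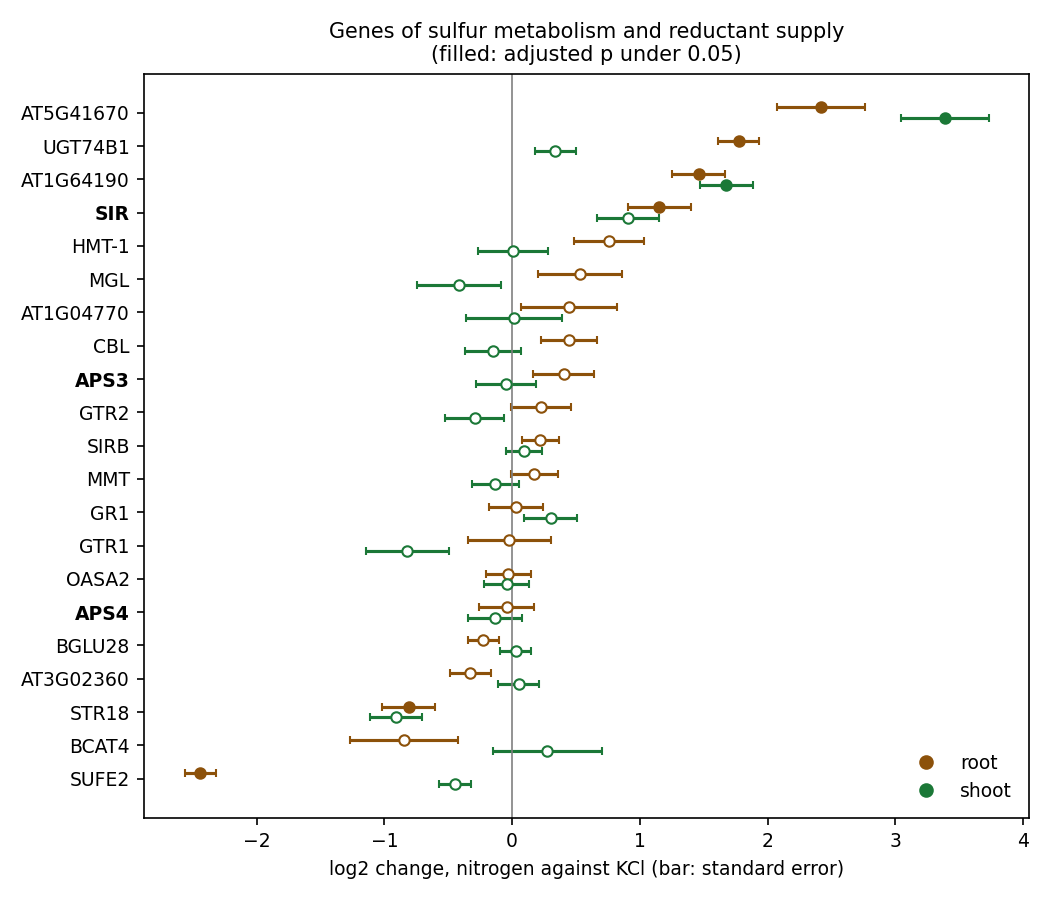
Log2 change with nitrogen against KCl in roots (brown) and shoots (green) for SIR, APS3 and APS4 (bold) and 18 other genes of sulfur metabolism and reductant supply, ordered by the root change; bars are standard errors and filled points had an adjusted p under 0.05. Above SIR in roots (1.15) lie AT5G41670, UGT74B1 and AT1G64190.

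Among methionine and methyl sulfur genes, homocysteine methyltransferase HMT-1 was at 0.76 ± 0.27 in roots (limma adjusted p = 0.116) and 0.01 in shoots. Cystathionine beta-lyase CBL, which acts on the way from cysteine to methionine, was at 0.44 and -0.15, methionine gamma-lyase MGL at 0.53 and -0.42, and methionine methyltransferase MMT at 0.17 and -0.13. None of these was called. BCAT4, which starts methionine chain elongation for glucosinolates, was at -0.85 ± 0.42 in roots and 0.28 in shoots, the glucosinolate transporter gene GTR1 at -0.02 and -0.82, and GTR2 at 0.23 and -0.29. Glutathione reductase GR1 was at 0.03 and 0.30 and OASA2, named for the cysteine-forming enzyme family, at -0.03 and -0.04. The sulfur starvation genes measured were AT1G04770 (SDI2), at 0.44 ± 0.38 in roots and 0.01 in shoots, and the beta-glucosidase gene BGLU28, at -0.23 ± 0.12 and 0.03, none of them called.

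Between tissues, 11 of the 18 other genes were higher and 2 lower in roots (median 0.49, against 0.07 over all probe sets), beside 19.3% higher and 16.5% lower of all probe sets. Those with the widest differences were STR18 (2.42 ± 0.15), BCAT4 (2.23 ± 0.30) and, in the other direction, GTR1 (-1.67 ± 0.23). None of these 3 differences was as wide as the 2.61 of APS4, a comparison of differences that was not tested.

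**Figure D4:**
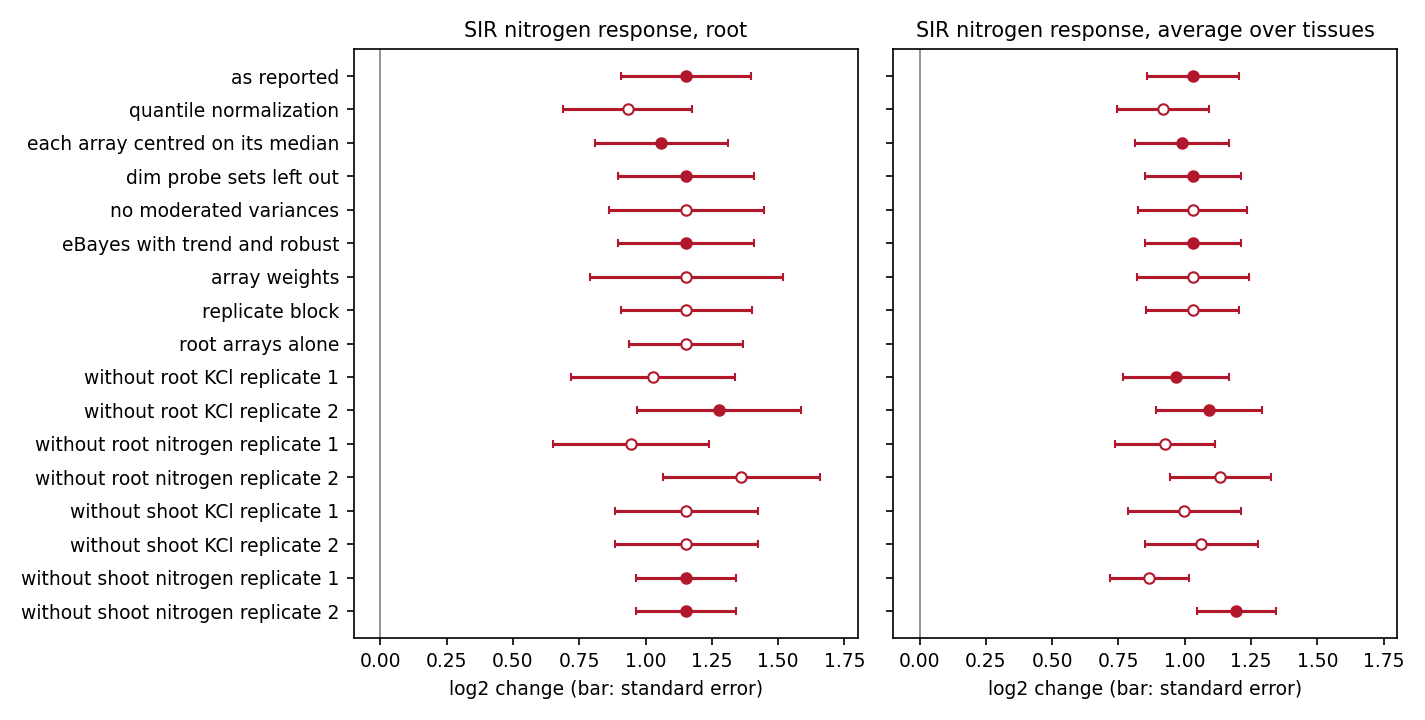
Log2 change of SIR with nitrogen in roots (left) and averaged over tissues (right) as reported and under each other setting; bars are standard errors and filled points had an adjusted p under 0.05. All values lie between 0.87 and 1.36, and the point is open in 10 of 16 other settings in roots.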

How the data were processed

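The authors deposited 1 log2 value per probe set and array, computed with RMA per the submitters' processing notes, whose version is not given in the sources used here. No further scaling was applied. After 64 control probe sets were left out, 22746 were tested, of which 13513 had 1 gene in the platform annotation, 503 several and 8730 none there. Limma 3.58.1 in R 4.3.3 fitted 4 group means over the 8 Arabidopsis arrays (4 residual degrees of freedom) with moderated variances, and was tested on simulated data. No 2 arrays held the same values, and the number of arrays limits the precision.

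The genes and lists were chosen with earlier results of these data known, and the 13 further sulfur genes after the annotation had been seen. Named were SIR, APS3 and APS4, every listed gene with a probe set of its own, and the 4 symbol-named genes most correlated with each. Rice arrays were not used. Alternatives were quantile normalization, median centring, a filter on dim probe sets, other variance estimates, array weights, single-tissue fits, a replicate block and leaving out each array.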

Additional observations from a re-analysis of the deposited data

Results flagged for a closer look

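SUFE2 was flagged because its nitrogen response differed between the tissues: the root change was more negative than the shoot change by -1.99 (limma interaction adjusted p = 0.0316, lower in both root and both shoot nitrogen arrays). The interaction was not called under the replicate block (adjusted p = 0.0820), without either root nitrogen array (0.137 and 0.154), without either shoot KCl array (0.258 and 0.235) or without shoot nitrogen replicate 2 (0.0926).

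For 3 further genes every root nitrogen array lay above the root KCl mean while every shoot nitrogen array lay below the shoot KCl mean. Root minus shoot response was 0.95 for MGL, 0.31 for MMT and 0.75 for the photosynthesis marker LHCB4.1. None passed the limma interaction test (adjusted p = 0.323, 0.556 and 0.605). The flag compared nitrogen arrays with the KCl mean only, not with each KCl array. Nitrogen and KCl arrays overlapped in roots for MMT and LHCB4.1, and in shoots for MGL and MMT. The share of all probe sets that meet this rule is not given, so these flags are a description. SIR, APS3 and APS4 were not flagged.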

How the results depend on the processing

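The direction of the SIR response in roots and averaged over tissues was kept under every setting tried. In roots the change moved only under quantile normalization, median centring or without a root array, to between 0.93 and 1.36. The other settings left it at 1.15 by design, so its kept direction there carries no information. The tissue difference of APS4 kept its call in all settings that compared the tissues. The SIR call was lost in roots and in the average after quantile normalization (0.93, adjusted p = 0.0790, and 0.92, adjusted p = 0.0570), and, with the changes as reported (1.15 and 1.03), without moderated variances (adjusted p = 0.110 and 0.122) and with array weights (0.142 and 0.0645). It was also lost in roots with the root arrays alone (1.15, adjusted p = 0.101). Leaving out 1 array gave 0.94 to 1.36 for SIR in roots, 0.58 to 1.23 in shoots, 0.87 to 1.19 in the average and -0.080 to 0.57 for the interaction. For APS4 the ranges were -0.14 to 0.060 in roots, -0.43 to 0.16 in shoots, -0.23 to 0.060 in the average and -0.20 to 0.39 for the interaction, which was -0.018 with each array centred on its median. APS3 ranged from 0.074 to 0.74 in roots, -0.17 to 0.077 in shoots, 0.013 to 0.34 in the average, 0.12 to 0.78 for the interaction and from -0.60 to -0.27 for root minus shoot level. Where not shown above, the cause of a changed call was not tested. Over all probe sets, root calls numbered 2589 as reported, 0 with the root arrays alone (limma, 4901 at an unadjusted p under 0.05) and 6122 without root KCl replicate 1. Shoot calls numbered 145, against 0 without moderated variances (1334 at an unadjusted p under 0.05) and 406 with array weights. Calls in the average numbered 730 (74 to 3769). Interaction calls numbered 110 (0 to 3178, with 0 under the replicate block).

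The labels do not say whether the replicate numbers pair the samples. The correlation of same-numbered deviations ran from -0.42 to 0.39 over the 6 pairs of groups. With 2 arrays per group and mixed signs, this does not decide the question. The main fit treated the 8 arrays as independent. The replicate block could not move the changes of SIR, as each replicate number occurs once in every group. Only the test could change, and SIR was not called in roots (1.15, limma adjusted p = 0.0509) or in the average (1.03, adjusted p = 0.0572). Calls over all probe sets with this block numbered 1389 in roots and 91 in shoots.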
